A study of Mus musculus with 9 samples.

Results

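Amino acid transporters carry amino acids across the plasma membrane and set how much of each amino acid a cell can use. The 10 genes described here encode plasma membrane transporters of 4 families: the cationic carriers Slc7a1 and Slc7a3, the large neutral exchangers Slc7a5 and Slc7a6 with their common heavy chain Slc3a2, the system A carriers Slc38a1, Slc38a2 and Slc38a4, and the ASC carriers Slc1a4 and Slc1a5. They were taken by gene name from a table of 54532 genes, in which each of the 10 names matched 1 Ensembl gene, and the rule uses names only. Their transcripts were measured by paired-end RNA sequencing in 9 libraries of B.END3, labelled as a C57BL/6 mouse brain endothelial cell line, 3 each of the groups Ctrl, Ep1 and Ep2. The question put to these samples was how photodynamic therapy (PDT) alters gene expression in cells of the blood-brain barrier.

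Ctrl cells were untreated. Ep1 and Ep2 cells grew as a monolayer, were incubated with porfimer sodium, a porphyrin photosensitizer that generates reactive oxygen species (ROS) under red light, at 300 µg/mL for 90 min, and were then irradiated with a 635 nm laser at 100 mW/cm2. The light dose was 10 J/cm2 in Ep1 and 20 J/cm2 in Ep2. All groups were cultured in DMEM with 10% FBS. No library of photosensitizer alone or of light alone was analysed here, so the 2 components of the treatment cannot be told apart, and the time from irradiation to lysis is not given in the sources used here. The cells are 1 established line, and nothing states that the replicates were separate cultures. The p-values therefore measure the spread between these libraries, which may be technical.

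Amino acid carriers are grouped by the side chains they accept and by whether they need sodium. System L, formed by the light chain LAT1 (Slc7a5) and the heavy chain CD98 (Slc3a2), exchanges large neutral amino acids such as leucine for internal glutamine, without sodium. It is abundant on brain capillary endothelium, where it carries essential amino acids and several drugs, such as levodopa, across the barrier. System A carriers (SNAT1, SNAT2 and SNAT4, from Slc38a1, Slc38a2 and Slc38a4) and ASCT2 (Slc1a5) are sodium-dependent and bring in glutamine and small neutral amino acids. CAT1 (Slc7a1) and CAT3 (Slc7a3) admit arginine and lysine. When amino acids run short, the kinase GCN2 and the transcription factor ATF4 raise several of these transcripts in many cell types, and leucine that enters the cell is sensed by the kinase complex mTORC1.

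For motif letters only the 250 bases before the transcription start were searched. They are shown for the 3 members that were higher than Ctrl at both light doses. DNA after the start was not searched, so a window without a match does not mean that the gene lacks the element. RefSeq windows on GRCm38.p6 matched 6 of the 10 members. The 5 motifs searched, on both strands, were the C/EBP-ATF response element core TGATGNAA, the antioxidant response element core TGACNNNGC, the AP-1 element TGANTCA, the E-box CACGTG and the cAMP response element TGACGTCA. Capitals mark the matches. All 3 genes are on the minus strand and each sequence is written 5′ to 3′ in the direction of transcription, ending 1 base before the start: Slc38a2 at chr15:96699729-96699978, Slc7a1 at chr5:148399905-148400154 and Slc3a2 at chr19:8713898-8714147.
Slc38a2: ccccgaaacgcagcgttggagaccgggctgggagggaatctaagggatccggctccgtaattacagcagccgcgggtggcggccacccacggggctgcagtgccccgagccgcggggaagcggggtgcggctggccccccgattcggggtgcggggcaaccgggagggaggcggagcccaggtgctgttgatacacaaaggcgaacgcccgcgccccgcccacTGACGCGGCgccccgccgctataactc
Slc7a1: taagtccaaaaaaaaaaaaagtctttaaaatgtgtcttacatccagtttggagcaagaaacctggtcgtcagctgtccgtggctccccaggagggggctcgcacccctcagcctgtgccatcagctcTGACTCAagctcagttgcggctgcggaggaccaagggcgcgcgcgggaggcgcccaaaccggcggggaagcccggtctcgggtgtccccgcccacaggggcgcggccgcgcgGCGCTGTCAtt
Slc3a2: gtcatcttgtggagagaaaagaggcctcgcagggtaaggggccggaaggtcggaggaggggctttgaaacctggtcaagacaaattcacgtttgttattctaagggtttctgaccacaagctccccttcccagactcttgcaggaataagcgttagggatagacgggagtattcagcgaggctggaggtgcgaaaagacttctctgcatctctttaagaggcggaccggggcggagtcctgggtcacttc

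The window of Slc38a2 held 1 match, TGACGCGGC, whose first base lies 27 bases before the start. That of Slc7a1 held GCGCTGTCA, a match on the other strand, 11 bases before the start and TGACTCA, a match to the AP-1 element, 123 bases before it, while a 2nd RefSeq start of Slc7a1 had no match. The window of Slc3a2 held none of the 5 motifs. This start of Slc3a2 lies within the gene span given in the deposited table, and another start was not analysed here. Of 32851 windows of 250 bases, 10.2% held the antioxidant response element core, 6.75% the AP-1 element, 6.02% the E-box, 3.45% the C/EBP-ATF core and 1.55% the cAMP response element. The G+C content was 72.0% for Slc38a2, 62.4% for Slc7a1 and 53.6% for Slc3a2, against a median of 52.4% over all windows. A match is a description of these letters and not evidence that a factor binds there.

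Expression was given by the authors as FPKM, that is fragments per kilobase of gene length scaled to the library total, so levels of different genes can be compared per length. The libraries held 16240688 to 19509225 fragments on genes, and mitochondrial transcripts took 1.90% to 1.99% of them in Ctrl, 2.0% to 2.08% in Ep1 and 2.04% to 2.49% in Ep2. Libraries of 1 group differed by more than counting noise, and Ep2 replicate 1 stood apart most, its chi-square against the other Ep2 libraries being 10.1 and 15.2 per degree of freedom. The fitted changes in Ep2, the ratios, the list counts and the Ep2 means and shares were therefore also computed without it. Those of most members are given where they are described. Of 12 markers of endothelium and brain endothelium, 4 reached a mean of 1 FPKM over the libraries (Slc2a1, Flt1, Mfsd2a and Egfl7) and 4 lay under 0.1 FPKM. The junction and receptor genes Pecam1, Cdh5, Kdr, Tek and Cldn5 had Ctrl means of 0.14, 0.86, 0.04, 0.03 and 0.03 FPKM, while the receptor gene Flt1 had 6.90. The summed level of these 12 markers was 109 to 112 FPKM in Ctrl, 112 to 134 in Ep1 and 136 to 182 in Ep2, most of it the glucose transporter Slc2a1 (group means 93.2, 102 and 134 FPKM). In Ep2 Slc2a1 and Flt1 were higher than Ctrl by limma (log2 fold changes 0.50 and 0.59), Mfsd2a was lower (−0.57, adjusted p = 0.000709) and Egfl7 did not pass the test (−0.25, adjusted p = 0.228). Of 6 epithelial markers 4 reached 1 FPKM, led by the keratin Krt8 at a Ctrl mean of 640 FPKM, with Cdh1 at 0.03 and Krt7 at 0, and their summed level was 1029 to 1081 FPKM in Ctrl, 937 to 1041 in Ep1 and 1155 to 1372 in Ep2. In Ep2 Epcam, Krt18 and Krt19 were higher by limma (log2 fold changes 0.61, 0.37 and 0.70) and Krt8 did not pass the test. With only 4 of the 12 endothelial markers at 1 FPKM or more and keratins high in every group, these markers do not bear out the label of endothelial cells. Both lists are split, so they do not settle what the cells are, and the cells are called B.END3 below. The part of these markers in the results below was not tested. Of the markers of pericytes and fibroblasts, astrocytes, neurons, and microglia and leukocytes, 1 of 8, 1 of 6, 1 of 5 and 0 of 6 reached 1 FPKM.

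In untreated cells Slc7a5 was the most abundant of the 10 transcripts, at 72.1 ± 4.65 FPKM (mean ± SD, n = 3 here and below). Slc38a2, Slc1a5 and Slc3a2 followed at 57.2 ± 3.66, 57.1 ± 4.22 and 54.0 ± 2.25 FPKM, and the libraries of these 3 overlapped, so their order is not resolved. Slc38a1 lay below them at 27.2 ± 0.463 FPKM. Slc7a6, Slc1a4 and Slc7a1 formed an overlapping group at 23.7 ± 0.558, 23.2 ± 0.829 and 22.9 ± 1.17 FPKM. The remaining members were scarce: Slc38a4 had 0.731 ± 0.053 FPKM, or 51 to 66 fragments a library in Ctrl and Ep1, and Slc7a3 had 2 to 12 fragments in any of the 9 libraries. The other 8 members each had 1347 to 18467 fragments a library.

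**Figure D1:**
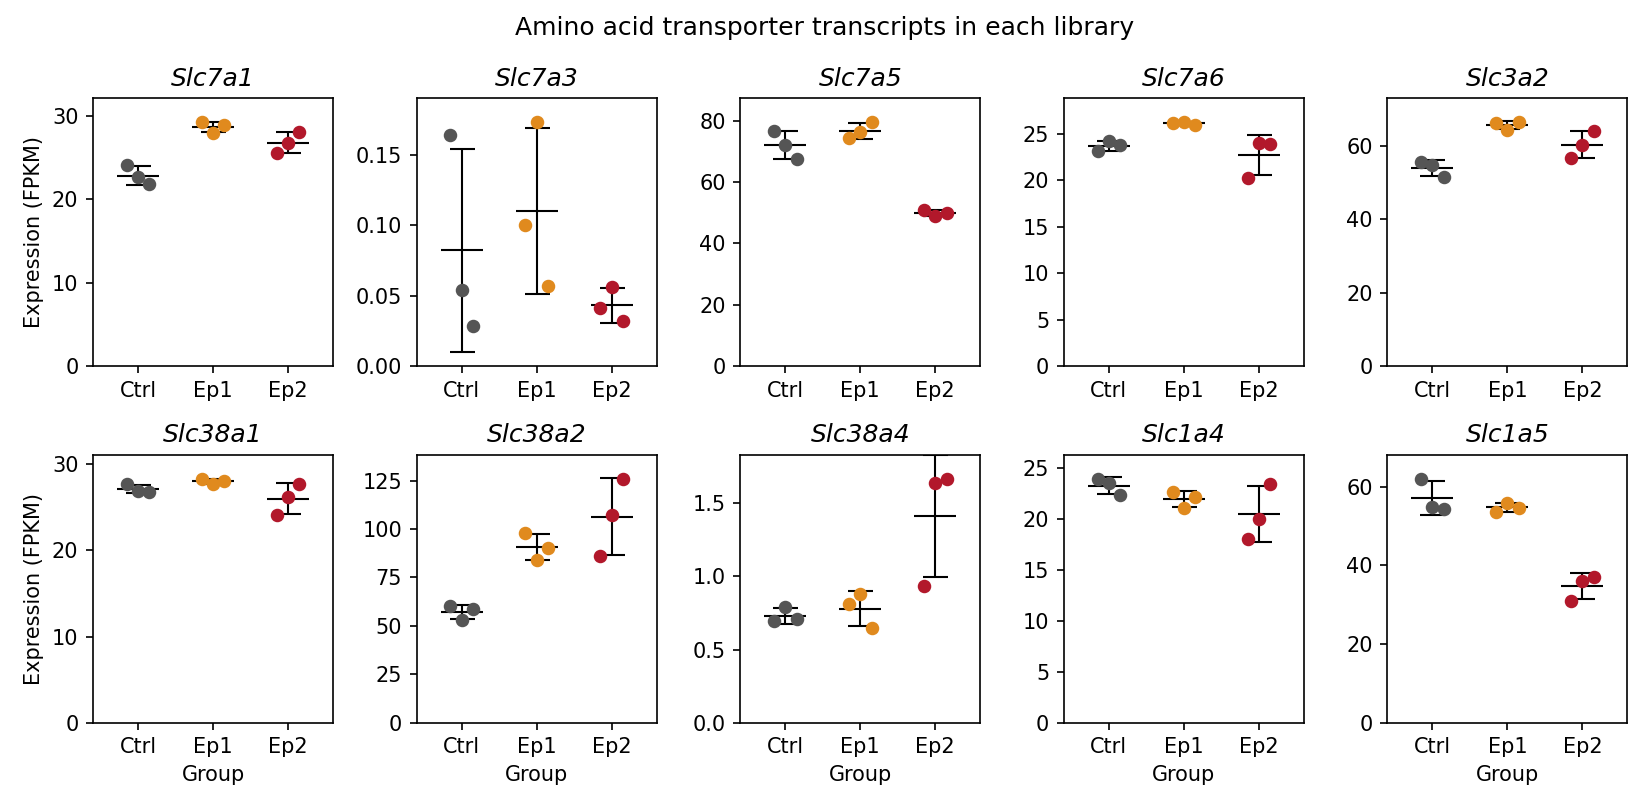
Expression of each of the 10 transporter genes in FPKM (vertical axis, from 0, with its own scale for each gene) in the Ctrl, Ep1 and Ep2 groups. Points are libraries, horizontal marks are means and bars are SD over 3 libraries; the Ep2 points lie below all Ctrl points for Slc7a5 and Slc1a5, and both treated groups lie above Ctrl for Slc38a2, Slc7a1 and Slc3a2.

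After PDT the order changed at its top. Slc38a2 was the most abundant transcript in both treated groups, at 90.7 ± 6.87 FPKM in Ep1 and 106 ± 19.8 in Ep2, in each case above every library of the next member. In Ep1 it was followed by Slc7a5 (76.7 ± 2.61), Slc3a2 (65.7 ± 1.15) and Slc1a5 (54.8 ± 1.15), and none of these 4 overlapped its neighbour. In Ep2 Slc3a2 (60.4 ± 3.63) had passed Slc7a5 (49.9 ± 1.06), and Slc1a5 (34.7 ± 3.30) came next, again with no overlap. Slc7a1, Slc38a1, Slc7a6 and Slc1a4 lay below these at 20.5 to 28.7 FPKM on average, with Slc7a1 and Slc38a1 overlapping at both doses.

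For each comparison, log2(FPKM + 1) of the 11727 genes with at least 1 FPKM in at least 3 libraries was fitted with limma, and a gene counts as changed at a Benjamini-Hochberg adjusted p below 0.05 over all of them. DEGs also had an absolute log2 fold change above 0.6. Of the 10 transporters 8 were tested, all but Slc7a3 and Slc38a4. At 10 J/cm2, 3 of the 8 were higher than Ctrl (Slc38a2, Slc7a1 and Slc3a2) and none was lower by limma (0 also at an unadjusted p below 0.05 and with voom), beside 11.3% of all tested genes changed, 6.32% higher and 4.97% lower. At 20 J/cm2 the same 3 were higher and 2 were lower (Slc1a5 and Slc7a5), beside 53.2% of all tested genes changed, 23.9% higher and 29.3% lower. The share of members changed at 20 J/cm2, 5 of 8, is near that of all genes. In RNA of whole cultures, fewer cells that carry a transcript and less of it per cell cannot be told apart. Slc38a2 was a DEG at both doses and Slc1a5 at 20 J/cm2, beside 0.793% of all tested genes that were DEGs in Ep1 and 9.17% in Ep2. The median log2 fold change of the 8 was 0.11 in Ep1 and −0.06 in Ep2, against −0.01 and −0.03 over all tested genes. Without Ep2 replicate 1 the median in Ep2 was 0.00, with 3 higher and 2 lower.

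**Figure D2:**
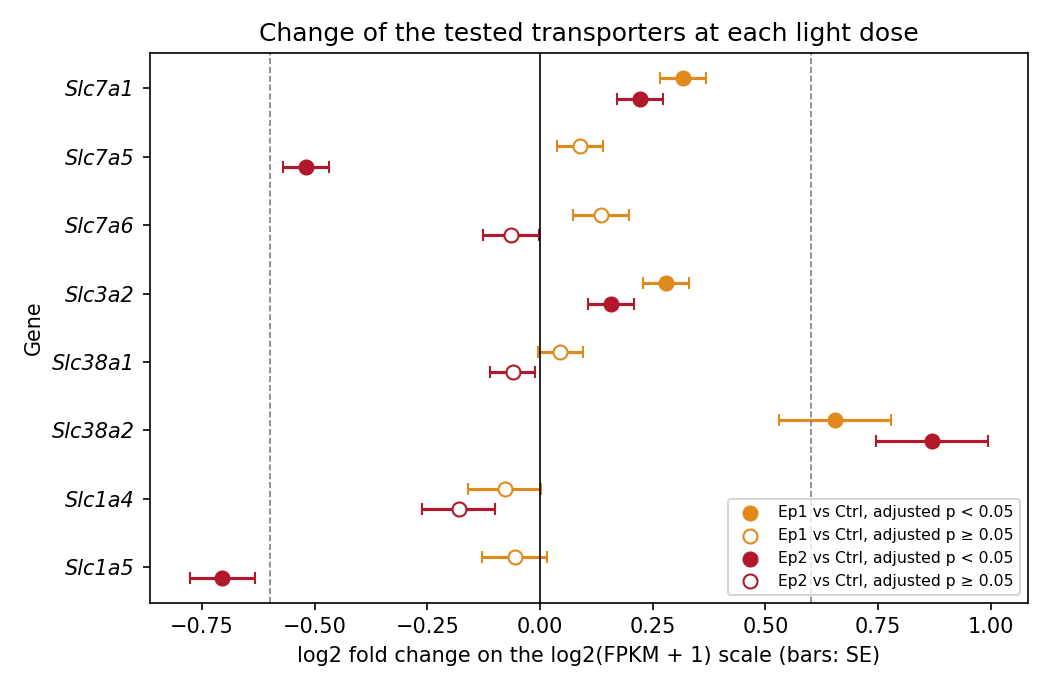
Log2 fold change of each of the 8 tested transporters against Ctrl (horizontal axis, log2(FPKM + 1) scale) in Ep1 and Ep2, with bars of 1 SE. Filled points passed an adjusted p of 0.05 with limma and dashed lines mark the DEG limit of 0.6; Slc38a2 lies to the right at 0.65 and 0.87, Slc1a5 and Slc7a5 lie to the left in Ep2 at −0.70 and −0.52.

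Of the system A carriers, Slc38a2 (chr15:96687392-96699730, minus strand, GRCm38) encodes SNAT2, known for rising in cells short of amino acids. Its level was 60.0, 53.1 and 58.6 FPKM in the Ctrl libraries, 97.8, 84.1 and 90.2 in Ep1, and 86.2, 107 and 126 in Ep2. Every treated library lay above every Ctrl library, and the Ep1 and Ep2 libraries overlapped. The mean rose 1.59-fold in Ep1 (log2 fold change 0.65, SE 0.12, limma adjusted p = 0.0171) and 1.86-fold in Ep2 (0.87, SE 0.12, adjusted p = 0.000477). The difference between the doses was 0.21 (95% interval −0.07 to 0.50, adjusted p = 0.196), and without Ep2 replicate 1, the lowest of the 3 Ep2 libraries, it was 0.36 with an adjusted p of 0.0115. Without that library the rise in Ep2 was 1.01 (adjusted p = 5.0e-05). The call in Ep1 was lost when no filter on low values was applied (adjusted p = 0.0518) and when single libraries were left out, with adjusted p-values of 0.0511 and 0.0759 without Ctrl replicates 1 and 2 and of 0.0645 and 0.0649 without Ep1 replicates 1 and 3, and its log2 fold change ranged from 0.60 to 0.71 over all settings tried.

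Slc38a1 (chr15:96571418-96642913, minus strand), which encodes the glutamine carrier SNAT1, is the neighbour of Slc38a2 on chromosome 15. It had 26.8 to 27.7 FPKM in Ctrl, 27.7 to 28.3 in Ep1 and 24.2 to 27.8 in Ep2. The log2 fold change was 0.05 in Ep1 (95% interval −0.07 to 0.16) and −0.06 in Ep2 (−0.17 to 0.05), so a change of the size seen for Slc38a2 lies outside both intervals. The 3rd gene of this stretch, Slc38a4 (chr15:96994820-97055956, minus strand, SNAT4), fell under the filter on low values. It had 57, 66 and 56 fragments in Ctrl, 64, 63 and 51 in Ep1 and 76, 131 and 118 in Ep2, with Ep2 replicate 1 close to the other groups. Its mean FPKM in Ep2 was 1.94-fold that of Ctrl, or 2.26-fold without Ep2 replicate 1. The change had an adjusted p of 0.0330 when no filter was applied and of 0.00297 with voom on the fragments, where the log2 fold change was 0.89 (SE 0.23). Its log2 fold change in Ep1 was 0.04 without the filter (adjusted p = 0.956).

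Of system L, Slc7a5 (chr8:121881150-121907694, minus strand) encodes the light chain that carries leucine and other large neutral amino acids. It measured 76.7, 72.2 and 67.4 FPKM in Ctrl, 74.3, 76.4 and 79.5 in Ep1, and 51.1, 49.0 and 49.8 in Ep2. The Ep2 libraries lay close together and below all the others, while Ctrl and Ep1 overlapped. Its mean fell to 0.692 of Ctrl in Ep2 (log2 fold change −0.52, SE 0.051, limma adjusted p = 4.18e-05), a fold under the DEG limit. In Ep1 the log2 fold change was 0.09 (95% interval −0.03 to 0.20, adjusted p = 0.278). Ep2 was lower than Ep1 by a log2 difference of −0.61 (SE 0.051, adjusted p = 2.87e-05). The fall against Ctrl was −0.54 without Ep2 replicate 1. On the opposite strand the gene overlaps Gm20388, which had 0 fragments in all libraries.

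Slc3a2 (chr19:8706882-8723369, minus strand) encodes the heavy chain that brings LAT1 and several other light chains to the plasma membrane. Its level was 55.6, 54.9 and 51.4 FPKM in Ctrl, 66.4, 64.4 and 66.4 in Ep1, and 56.8, 60.2 and 64.1 in Ep2. All treated libraries exceeded all Ctrl libraries, and the Ep2 libraries lay between the other groups. Slc3a2 rose 1.22-fold in Ep1 (log2 fold change 0.28, SE 0.051, adjusted p = 0.0130) and 1.12-fold in Ep2 (0.16, SE 0.051, adjusted p = 0.0254), neither a DEG. The call in Ep1 was lost without Ctrl replicate 2, Ep1 replicate 1 or Ep1 replicate 3, with adjusted p-values of 0.0544, 0.0515 and 0.0597. That in Ep2 was lost without Ctrl replicate 3, Ep2 replicate 2 or Ep2 replicate 3, at 0.0869, 0.0590 and 0.0789, and held without Ep2 replicate 1 (0.20, adjusted p = 0.00628). The Ep2 call was also lost in a fit of only the groups compared.

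LAT1 and CD98 are joined in a heterodimer, and the ratio of their FPKM values compares both transcripts per length within a library. The Slc7a5 to Slc3a2 ratio was 1.38, 1.32 and 1.31 in Ctrl, 1.12, 1.19 and 1.20 in Ep1, and 0.899, 0.813 and 0.778 in Ep2. Slc7a5 thus exceeded Slc3a2 in all 6 libraries of Ctrl and Ep1 and lay under it in all 3 of Ep2, and no 2 groups overlapped. The mean log2 ratio differed from Ctrl by −0.19 in Ep1 and by −0.69 in Ep2, and between Ep2 and Ep1 by −0.49. Each of these 3 comparisons gave p = 0.1 in a two-sided exact permutation test, the smallest p that 3 libraries against 3 allow, so none can pass 0.05 in this design. Without Ep2 replicate 1 the difference from Ctrl in Ep2 was −0.75.

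**Figure D3:**
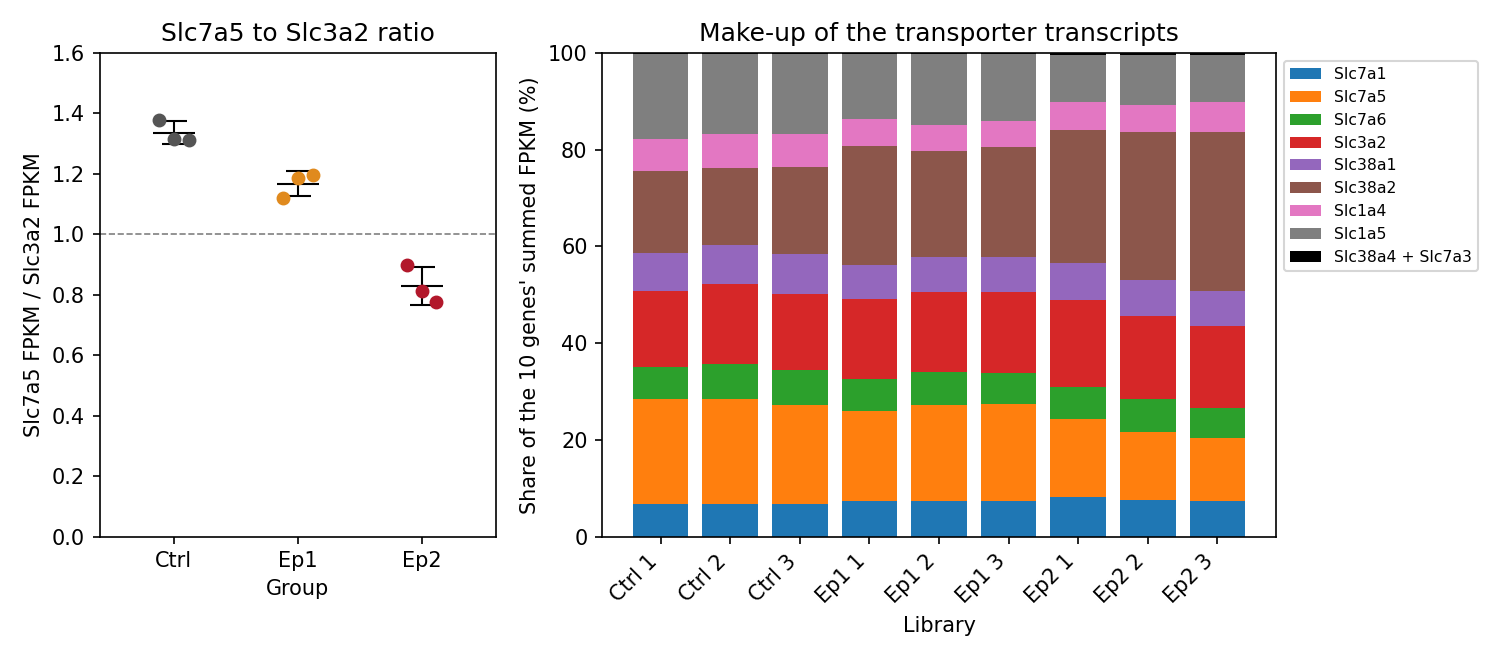
Left, the Slc7a5 to Slc3a2 FPKM ratio in each library by group, with means and SD bars and a dashed line at a ratio of 1. Right, stacked bars of the share (%) each gene takes of the summed FPKM of the 10 genes in each library; the ratio is above 1 in Ctrl and Ep1 and below 1 in Ep2, and the share of Slc38a2 grows from a mean of 16.9% in Ctrl to 30.3% in Ep2.

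Slc7a6 (chr8:106168857-106198706, plus strand) encodes y+LAT2, another light chain of CD98, which exchanges arginine for neutral amino acids. Its libraries read 23.2, 24.3 and 23.8 FPKM in Ctrl, 26.2, 26.3 and 26.0 in Ep1, and 20.2, 24.0 and 23.9 in Ep2. The Ep1 libraries stood above all others, and Ep2 replicate 1 was the lowest. Against Ctrl its log2 fold change was 0.13 (adjusted p = 0.184) at the lower dose and −0.06 (adjusted p = 0.413) at the higher. Ep2 was lower than Ep1 by −0.20 (SE 0.062, adjusted p = 0.0274), and by −0.12 without Ep2 replicate 1 (adjusted p = 0.0276). This call was lost without any 1 of the Ep1 libraries, at adjusted p-values of 0.0635 to 0.0717. It was also lost with median centring of the libraries, where 2 members were lower in Ep2 than in Ep1.

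Of the cationic carriers, Slc7a1 (chr5:148327410-148399904, minus strand) encodes CAT1, the main entry route for arginine in many cells. It measured 24.1, 22.7 and 21.8 FPKM in Ctrl, 29.2, 28.0 and 28.9 in Ep1, and 25.6, 26.8 and 28.1 in Ep2. Every treated library lay above every Ctrl library, and the treated groups overlapped each other. The mean rose 1.26-fold in Ep1 (log2 fold change 0.32, SE 0.050, limma adjusted p = 0.00975) and 1.17-fold in Ep2 (0.22, SE 0.050, adjusted p = 0.00477), neither a DEG. The rise in Ep2 was 0.25 without Ep2 replicate 1. Both calls held in every alternative fit, but neither log2 fold change reached the DEG limit of 0.6. Slc7a3 (chrX:101079210-101086020, minus strand), which encodes CAT3, had 12, 4 and 2 fragments in Ctrl, 7, 11 and 4 in Ep1, and 3, 4 and 2 in Ep2, levels at which no difference was detectable.

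Of the ASC carriers, Slc1a5 (chr7:16781340-16798274, plus strand) encodes ASCT2, an exchanger through which many proliferating cells take up glutamine. Its level was 62.0, 54.9 and 54.4 FPKM in Ctrl, 53.7, 56.0 and 54.7 in Ep1, and 30.9, 36.0 and 37.2 in Ep2. The Ep2 libraries lay far below the rest, while Ctrl and Ep1 overlapped. Slc1a5 fell to 0.607 of Ctrl in Ep2 (log2 fold change −0.70, SE 0.073, limma adjusted p = 5.38e-05), which made it the only DEG of the 8 tested members that fell against Ctrl. In Ep1 the log2 fold change was −0.06 (95% interval −0.22 to 0.11), and Ep2 was lower than Ep1 by −0.65 (SE 0.073, adjusted p = 0.000135). The fall in Ep2 was −0.63 without Ep2 replicate 1.

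Slc1a4 (chr11:20302180-20332713, minus strand) encodes ASCT1, a carrier of alanine, serine and cysteine. It had 23.9, 23.5 and 22.3 FPKM in Ctrl, 22.6, 21.1 and 22.1 in Ep1, and 18.0, 20.0 and 23.4 in Ep2, and the groups overlapped. Its log2 fold change in Ep2 was −0.18 (95% interval −0.36 to 0.00, adjusted p = 0.0879), and it was −0.28 with an adjusted p of 0.00449 without Ep2 replicate 3, the highest of the Ep2 libraries. Without Ep2 replicate 1, the lowest of them, the difference shrank. The Ep2 mean was then 0.936 of Ctrl, against 0.882 with all 3 libraries. In Ep1 it was −0.08 (adjusted p = 0.554).

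Between the light doses, 3 of the 8 tested members were lower in Ep2 than in Ep1 (Slc1a5, Slc7a5 and Slc7a6) and none was higher by limma (0 also at an unadjusted p below 0.05, and 1, Slc38a4, with voom), beside 44% of all tested genes changed, 18.8% higher and 25.2% lower. Slc1a5 and Slc7a5 were DEGs in this comparison, beside 5.9% of all tested genes. With voom on the fragments the members changed were 3, 7 and 4 of the 9 it tested, for Ep1 and Ep2 against Ctrl and for Ep2 against Ep1, beside 13.5%, 50.1% and 41.5% of 14112 genes. Counting libraries that do not overlap, 5 of the 10 members lay wholly above Ctrl in Ep1 and none below it, beside 20.8% of the tested genes above and 20.5% below. In Ep2, 4 lay wholly above Ctrl, the scarce Slc38a4 among them, and 2 below, beside 27% and 32.7%. In Ep2 against Ep1, 1 lay wholly above, Slc38a4, and 5 below, beside 24.1% and 30.3%. The 5 include Slc7a3, whose separation rests on 2 to 11 fragments a library and is no difference at that depth. The shares cover tested genes only, whereas Slc38a4 and Slc7a3 were not tested. The 2 treated groups were compared with the same Ctrl libraries, so their changes are not independent of each other.

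The summed FPKM of the 10 genes was 338 ± 14.1 in Ctrl, 394 ± 7.65 in Ep1 and 349 ± 34.0 in Ep2, the Ep2 libraries spanning 314 to 382 with a mean of 366 without replicate 1. Within this sum Slc38a2 took 16.9% in Ctrl, 23.0% in Ep1 and 30.3% in Ep2 (31.7% without Ep2 replicate 1). The share of Slc7a5 was 21.3%, 19.5% and 14.4% in the same order (13.5% in Ep2 without replicate 1), and that of Slc1a5 16.9%, 13.9% and 9.95% (9.99%). The share of Slc3a2 was 16.0%, 16.7% and 17.3%. A share falls when other members rise, so these values describe the make-up of the transcripts and not the change of single genes.

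Among the members, Slc7a1 and Slc3a2 had the most similar patterns over the 9 libraries, with a root-mean-square distance of 0.032 between their centred log2(FPKM + 1) values. Slc7a5 and Slc1a5 were 0.115 apart. Outside the 10, the genes nearest to Slc7a1 included Ppp2r2a at 0.037 and Smg6 at 0.041, against a spread of Slc7a1 itself of 0.141. Ppp2r2a encodes a regulatory subunit of a protein phosphatase and Smg6 an endonuclease of nonsense-mediated decay. Ppp2r2a was also nearest to Slc3a2, at 0.037, followed by Spin1 at 0.040 and Tnfrsf10b, a death receptor, at 0.041. Those nearest to Slc7a5 were Ticrr at 0.033, Cdca2 at 0.034 and Eif3b at 0.039, against a spread of Slc7a5 of 0.273. Ticrr acts in the start of DNA replication, Cdca2 in mitosis and Eif3b in the initiation of translation. Their mean levels in Ctrl, Ep1 and Ep2 were 5.05, 5.27 and 3.04 FPKM for Ticrr, 12, 12.4 and 7.82 for Cdca2, and 180, 184 and 124 for Eif3b. The distance measures likeness of pattern only.

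The rest of amino acid transport and metabolism was read from lists of genes in the same limma fit. Of 44 other amino acid transporters of the SLC families, 43 were in the table and 13 passed the filter. In Ep1 1 of the 13 was higher and 1 lower, and in Ep2 4 were higher and 3 lower, with median log2 fold changes of −0.07 and 0.00. Over all tested genes 11.3% changed in Ep1 and 53.2% in Ep2, so the 7 of 13 in Ep2 are near that share. Without Ep2 replicate 1, 3 were higher and 3 lower (median −0.02). Slc7a11, the light chain xCT that pairs with CD98 to import cystine for glutathione synthesis, moved most. It had 5.42, 5.08 and 5.76 FPKM in Ctrl, 12.6, 10.4 and 11.5 in Ep1, and 16.0, 15.9 and 17.2 in Ep2, with no overlap between any groups. On the log2 scale it rose by 0.96 in Ep1 (SE 0.070, adjusted p = 0.00121) and by 1.44 in Ep2 (adjusted p = 2.17e-06). Of the light chains of CD98 described here, Slc7a11 was thus higher at both doses, Slc7a5 was lower at 20 J/cm2, and Slc7a6 did not pass the test against Ctrl. In the other direction, Slc43a2, a sodium-independent carrier of large neutral amino acids, fell from 1.32 ± 0.126 to 0.724 ± 0.014 FPKM in Ep2. Its log2 fold change was −0.43 (adjusted p = 0.00174), on a scale that understates the fold of low genes. Its Ep2 level lay under 1 FPKM, so it passed the filter only through the other groups, and its call is tied to that filter. Slc38a7 fell by 0.20 in Ep1 (adjusted p = 0.0408), a call lost in 9 of 14 alternatives with adjusted p-values of up to 0.132.

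Of 14 tested genes of the ATF4 response to amino acid shortage and stress, 3 were higher in Ep1 and none lower by limma (1 at an unadjusted p below 0.05, 0 with voom), and 8 were higher and 1 lower in Ep2, with median log2 fold changes of 0.08 and 0.25. The shares over all tested genes were 6.32% higher in Ep1, and 23.9% higher and 29.3% lower in Ep2. Without Ep2 replicate 1, 8 were higher and 3 lower (median 0.20). Atf4 itself measured 172, 162 and 166 FPKM in Ctrl, 231, 212 and 218 in Ep1, and 221, 226 and 240 in Ep2. The treated libraries lay above all Ctrl libraries, and the log2 fold change was 0.40 in Ep1 (SE 0.048, adjusted p = 0.00538). Vldlr, the very low density lipoprotein receptor and a known ATF4 target, rose from 6.30 ± 0.194 to 14.0 ± 1.29 FPKM in Ep2, a log2 fold change of 1.04 (adjusted p = 1.43e-05). Eif2ak4, which encodes the amino acid sensor GCN2, fell by 0.21 in Ep2 (adjusted p = 0.00346).

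Of 12 tested genes of asparagine, serine, glycine and proline synthesis none passed the limma test in Ep1 (1 higher and 1 lower at an unadjusted p below 0.05, 0 with voom), while in Ep2 4 were higher and 6 lower, with a median log2 fold change of −0.22, beside 23.9% and 29.3% of all tested genes (3 higher and 7 lower without Ep2 replicate 1, median −0.31). Shmt1, the cytosolic serine hydroxymethyltransferase, fell by 1.06 in Ep2 (adjusted p = 4.50e-06), from 24.2 ± 1.5 to 11.1 ± 0.465 FPKM. Pycr1, the last enzyme of proline synthesis, rose by 0.43 (adjusted p = 0.000659). Of 17 tested genes of glutamine, branched-chain amino acid and arginine use, 3 were higher and 10 lower in Ep2, with a median log2 fold change of −0.26, beside the same shares of all tested genes (3 higher and 9 lower without Ep2 replicate 1, median −0.24). Odc1, which starts polyamine synthesis from ornithine, fell by 0.55 in Ep2 (adjusted p = 2.06e-05), from 142 ± 4.27 to 96.7 ± 5.92 FPKM. Gpt2, the mitochondrial alanine transaminase, rose by 0.79 (adjusted p = 0.000364).

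Of 26 tested genes of amino acid sensing by mTORC1, 1 was higher and 3 lower in Ep1, and 8 were higher and 10 lower in Ep2, with medians of −0.08 and −0.05, beside 6.32% higher and 4.97% lower in Ep1 and 23.9% and 29.3% in Ep2 over all tested genes. Without Ep2 replicate 1, 8 were higher and 9 lower (median −0.08). Fnip1, a partner of folliculin at the lysosome, had 7.63, 6.87 and 7.52 FPKM in Ctrl, 11.3, 10.5 and 11.1 in Ep1, and 14.6, 15.9 and 17.1 in Ep2. No library of 1 group reached the range of another, and Fnip1 rose by 0.52 in Ep1 (adjusted p = 0.00538) and by 1.01 in Ep2 (adjusted p = 5.20e-06) on the log2 scale. The arginine sensor gene Castor1 fell by 0.76 in Ep2 (adjusted p = 4.77e-05), from 17.1 ± 1.51 to 9.69 ± 0.633 FPKM. Castor2 fell by 0.29 in Ep1 (adjusted p = 0.0218), and this call was lost in 6 of 14 alternatives with adjusted p-values of up to 0.0953.

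**Figure D4:**
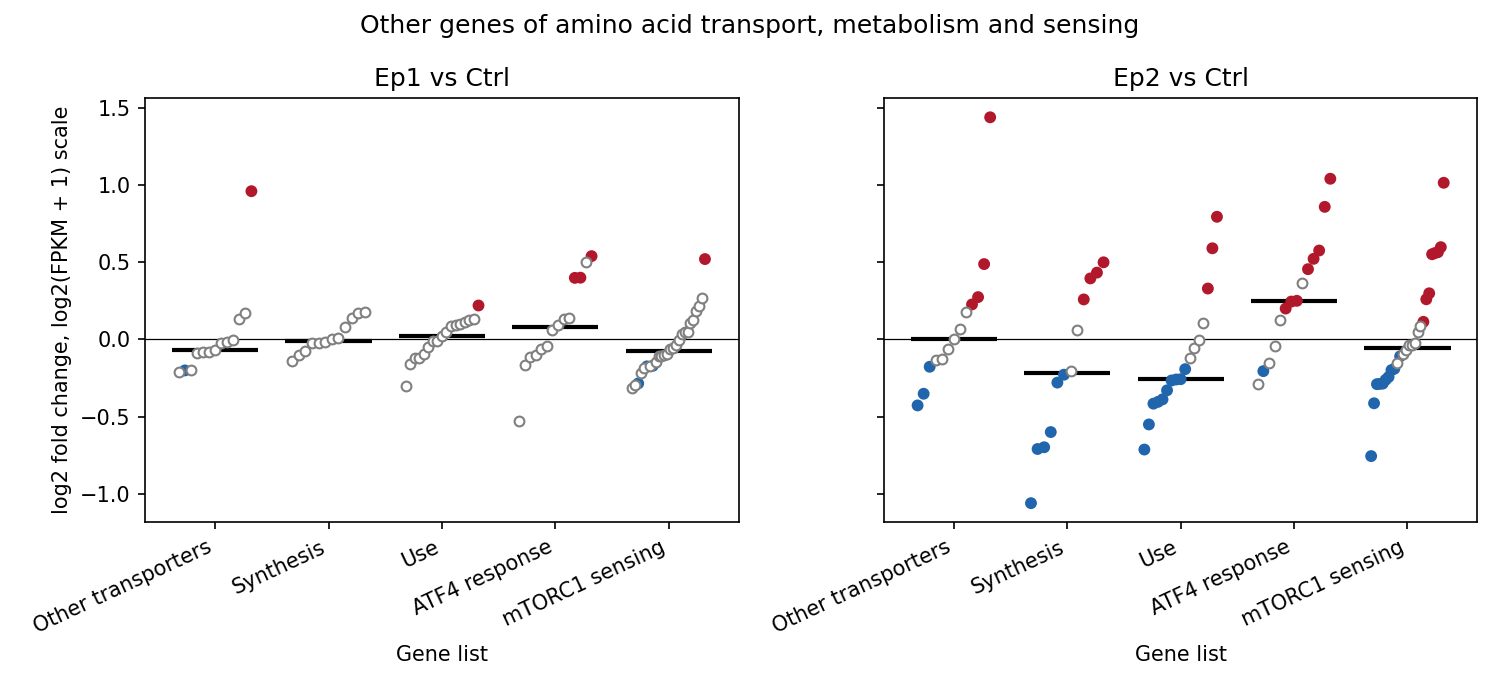
Log2 fold change (vertical axis, log2(FPKM + 1) scale) of each tested gene in 5 lists of other amino acid genes, in Ep1 (left) and Ep2 (right) against Ctrl. Red and blue points passed an adjusted p of 0.05 with limma as higher and lower, open points did not, and black lines are medians; the highest points of the transporter list are Slc7a11 at 0.96 and 1.44, and the median of the ATF4 response list is 0.08 in Ep1 and 0.25 in Ep2.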

How the data were processed

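RNA of 9 B.END3 libraries, 3 per group as named in the labels, was sequenced by the authors on a HiSeq2500 with paired ends. The deposited values are FPKM for 54532 genes, normalized by the authors for gene length and library size. The single-library tables equal the joint table. The methods name GRCm39, whereas the submitters' processing notes list mm8 and Bowtie 0.12.2. The counter and strand setting are not given in the sources used here. Of 36526 genes compared, 99.9% of the listed positions overlapped GRCm38 and 12.4% GRCm39, so positions refer to GRCm38. The growth protocol calls the line rat, while the organism label and the gene identifiers are mouse.

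The product of FPKM and gene length came in whole steps in each library (tolerance 0.05), and these steps were taken as fragments. Totals were 16240688 to 19509225 per library; the spread between libraries rather than counting error limits the 8 tested members.

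log2(FPKM + 1) of genes that reached 1 FPKM in 3 or more libraries was fitted with limma 3.58.1 (R 4.3.3) over all 9 libraries, without covariates (eBayes with trend and robust), with Benjamini-Hochberg adjustment over all 11727 tested genes in each comparison. A fold change on this scale understates that of low genes. The expression ratio was tested by two-sided exact permutation. Alternatives were no filter, a stricter filter (FPKM of at least 2), a pseudocount of 0.1, median centring and removal of a trend with gene length. Others were a fit of only the groups compared, a replicate block, voom on the fragments (14112 genes with at least 10 fragments in at least 3 libraries) and omission of each library. The minimum fold change was a cut on the reported fit and not a separate test. The fits were run on simulated data with a common spread for all genes, no outlying library and larger changes than most members had. That setting is simpler than these data, so it does not show how the fits perform here. Python 3.11.15 with pandas 2.3.3, numpy 2.4.6, scipy 1.17.1 and matplotlib 3.10.9 was used.

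The members and lists were chosen with earlier results of these data known. Named genes are the 10 members, the 3 genes nearest in pattern to Slc7a1, Slc7a5 and Slc3a2, and for each list the gene with the smallest adjusted p in each direction against Ctrl at each dose, and the cell type markers; some of these genes are not reported here. Promoter sequences are from RefSeq (GRCm38.p6). Values from qRT-PCR, imaging and cytometry were not used here.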

Additional observations from a re-analysis of the deposited data

Results flagged for a closer look

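For 3 of the 8 tested transporters the effect of PDT differed between the light doses by the test of the difference itself. In Ep2 against Ep1 the log2 difference was −0.65 for Slc1a5 (limma adjusted p = 0.000135), −0.61 for Slc7a5 (adjusted p = 2.87e-05) and −0.20 for Slc7a6 (adjusted p = 0.0274), beside 44% of all tested genes. The 3 of 8 are not above that share. All 3 Ep2 libraries lay below all 3 Ep1 libraries for each of these genes, as they did for 30.3% of all tested genes. The Slc7a6 call was lost with median centring, without a filter and without any 1 of the Ep1 libraries.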

How the results depend on the processing

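No called change reversed its direction under any alternative. Of the 3 members changed in Ep1, 1 to 3 remained changed when each library was left out, with 1 without Ctrl replicate 2, Ep1 replicate 1 or Ep1 replicate 3. In the fit as reported, 1 of the 3 also passed the minimum fold change that defines a DEG. Of the 5 in Ep2, 4 to 5 were changed with a library left out and 2 with a minimum fold change. Removal of the gene length trend gave 6 in Ep2, and a fit of only the groups compared gave 4 in each comparison with Ctrl. For Ep2 against Ep1, against 3 in the fit as reported, 5 were changed after removal of the gene length trend and 2 after median centring. With a library left out 2 to 6 were changed, the 6 without Ep2 replicate 3. Without a filter 2, 5 and 2 were changed for Ep1 and Ep2 against Ctrl and Ep2 against Ep1. The calls for Slc38a2, Slc7a1, Slc7a5 and Slc1a5 in Ep2 against Ctrl, and for Slc7a5 and Slc1a5 in Ep2 against Ep1, held in each of the 14 fits that recomputed them. The Slc7a5 to Slc3a2 log2 ratio differed from Ctrl by −0.21 to −0.16 in Ep1 and by −0.75 to −0.64 in Ep2, and between the doses by −0.55 to −0.45, with a library left out. Replicates of the same number did not deviate together (correlations of −0.056 to 0.074 over 9 pairs), and with the replicate block 3, 5 and 3 members were changed. The causes of lost calls were not tested.

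The calls of Slc38a2 and Slc3a2 in Ep1, of Slc3a2 in Ep2 and of Slc7a6 between the doses were lost without single libraries. The adjusted p-values are given where each gene is described. Without a filter Slc38a2 in Ep1 (adjusted p = 0.0518), Slc3a2 in Ep2 (0.0620) and Slc7a6 between the doses (0.0721) were lost. The Slc7a6 call was also lost with median centring, and that of Slc3a2 in Ep2 in the fit of only the groups compared. Low fragment numbers limit Slc7a3, with 2 to 12 per library, and Slc38a4, with 51 to 131. For the 8 tested members counting error and the spread between libraries were not separated. The list counts, means and shares without Ep2 replicate 1 were chosen after seeing the data. The strand setting and RNA quality beyond the mitochondrial share were not analysed here.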
